A study of Mus musculus with 12 samples.

Results

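The 10 genes described here, Hspa1a, Hspa1b, Hspa8, Hspb1, Hspb8, Bag3, Hsph1, Dnajb1, Dnaja1 and Hsp90aa1, encode heat shock chaperones and the partners that work with them. They were taken by name from a table of 39756 genes, and all 10 had enough counts to be tested among the 17558 genes that passed the filter on low counts. Poly(A) RNA was sequenced from the ischemic hemisphere, and from the corresponding hemisphere of sham-operated animals, of male C57BL/6J mice, 4 in each of 3 groups, aged 9 to 10 weeks in the study's methods. Sham mice underwent sham surgery, without ischemia. LJP mice received Laminaria japonica polysaccharide, a sugar polymer from a brown alga. The Vehicle and LJP groups had cerebral ischemia-reperfusion injury by tMCAO, the transient occlusion of the middle cerebral artery, which feeds much of the hemisphere and was reopened here after 45 min. Daily oral dosing covered the 14 days up to the operation and the time after it, with saline in place of LJP in the Sham and Vehicle groups. Of 3 doses described, the study took the middle one into its later experiments, but the dose and the sampling time are not stated for the sequenced mice themselves.

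Chaperones bind proteins that have lost or not yet reached their fold. Small heat shock proteins such as HSPB1 and HSPB8 hold unfolded clients without using ATP, and HSP70 proteins take these clients over and refold them in cycles of ATP hydrolysis. J-domain proteins such as DNAJB1 and DNAJA1 deliver clients to HSP70 and start the hydrolysis, exchange factors such as HSPH1 and BAG3 release the nucleotide, and HSP90 finishes the folding of kinases and hormone receptors. HSF1, the main heat shock factor, binds inverted repeats of GAA in the promoters of many of these genes when unfolded proteins accumulate. In ischemic brain, stress-inducible HSP70 is a classical marker of tissue that has lost part of its blood supply.

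Hspa1a and Hspa1b, the stress-inducible HSP70 genes, are neighbours and near-identical copies. In the GENCODE M21 transcripts, 47.1% of the 100-base windows of Hspa1a and 49.9% of those of Hspa1b occurred without a mismatch in the other gene, and with windows of 200 bases, nearer to the length of the sequenced fragments, these shares were 29.8% and 31.6%. The longest shared run was 638 bases. How the authors' counting treated reads that match both copies is not given in the sources used here. The levels of the single copies are therefore uncertain, and their sum, given beside them, is too low if such reads were left out. The promoters of both copies were also alike, with the same base at 247 of 250 positions (98.8%) before the start of transcription.

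The 5 promoters below belong to the members that were higher in Vehicle than in Sham mice, and they are shown to let their heat shock elements be compared. Each run is the 250 bases before the start of transcription, 5′ to 3′ on the strand of the gene, from RefSeq on build GRCm38.p6, and capitals mark a pair of GAA repeats facing each other across 2 bases (GAANNTTC or TTCNNGAA, each its own reverse complement).
Hspa1a (chr17:34972157-34972406, minus strand): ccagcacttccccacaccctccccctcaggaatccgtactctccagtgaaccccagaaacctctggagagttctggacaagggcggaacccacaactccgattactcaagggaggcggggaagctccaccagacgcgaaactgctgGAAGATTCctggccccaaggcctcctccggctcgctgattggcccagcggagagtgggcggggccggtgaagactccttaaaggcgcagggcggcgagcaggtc
Hspa1b (chr17:34959239-34959488, minus strand): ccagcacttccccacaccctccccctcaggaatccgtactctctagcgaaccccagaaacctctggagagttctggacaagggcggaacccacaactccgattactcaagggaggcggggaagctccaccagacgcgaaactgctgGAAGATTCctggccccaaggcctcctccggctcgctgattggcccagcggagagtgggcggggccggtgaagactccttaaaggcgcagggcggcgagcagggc
Hspb1 (chr5:135887669-135887918, plus strand): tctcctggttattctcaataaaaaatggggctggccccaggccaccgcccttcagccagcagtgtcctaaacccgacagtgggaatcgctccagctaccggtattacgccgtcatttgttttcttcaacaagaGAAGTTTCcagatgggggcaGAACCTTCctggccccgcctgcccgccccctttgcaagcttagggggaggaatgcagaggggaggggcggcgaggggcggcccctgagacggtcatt
Hspb8 (chr5:116422865-116423114, minus strand): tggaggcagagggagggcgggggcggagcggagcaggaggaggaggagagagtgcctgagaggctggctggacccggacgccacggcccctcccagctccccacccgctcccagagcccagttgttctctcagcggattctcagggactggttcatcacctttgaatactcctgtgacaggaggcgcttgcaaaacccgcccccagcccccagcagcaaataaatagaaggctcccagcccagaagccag
Bag3 (chr7:128523333-128523582, plus strand): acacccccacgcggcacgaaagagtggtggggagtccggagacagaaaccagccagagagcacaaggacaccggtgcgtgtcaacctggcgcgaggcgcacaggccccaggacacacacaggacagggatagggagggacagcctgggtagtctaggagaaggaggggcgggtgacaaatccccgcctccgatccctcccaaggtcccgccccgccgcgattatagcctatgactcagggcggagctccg
Hspa1a and Hspa1b carried the same pair of repeats, GAAGATTC, with its first base 104 bases before the start. Hspb1 carried GAAGTTTC at 117 and GAACCTTC at 97 bases before the start, whereas Hspb8 and Bag3 had no such pair within the 250 bases but carried GAAGTTTC just past the start, at 3 and 43 bases. RefSeq windows were found for 8 of the 10 members, all but Hspa8 and Hsp90aa1. A pair of repeats lay in 5 of these 8, the other 2 being Hsph1 and Dnaja1, against 14.5% of the 27025 genes with a window of the same length. The longer element of 3 alternating repeats was found before the start in 0 of the 8 and in 0.514% of all genes, while Hsph1 carried one 37 bases past its first start site. Such matches describe letters only, and no binding was measured here.

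Per length of the gene, as the authors' table gives it, the members covered a wide range in Sham mice. Hspa8, the constitutive HSP70, was the most abundant at 653 ± 14.8 CPM per kilobase (SD, n = 4), where CPM are read counts scaled to a common library size after TMM normalization. Hsp90aa1 followed at 223 ± 13, Hsph1 at 85.6 ± 4.64, Dnaja1 at 64.2 ± 4.15, Dnajb1 at 19.8 ± 1.08 and Hspb1 at 10.1 ± 1.38 CPM per kilobase. The lowest were Hspb8 at 5.67 ± 0.169, Hspa1b at 4.96 ± 0.844, Hspa1a at 4.19 ± 0.64 and Bag3 at 3.61 ± 0.358, and neighbours among these 4 differed by less than their SDs combined. The inducible pair together amounted to 1.24 to 1.58% of Hspa8 per kilobase in Sham mice. In Vehicle mice 1 to 4 this share was 13.8, 25.4, 1.83 and 4.11%, and in LJP mice it lay between 1.43 and 2.01%. These shares are too low if reads that match both copies were left out of the counts.

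**Figure D1:**
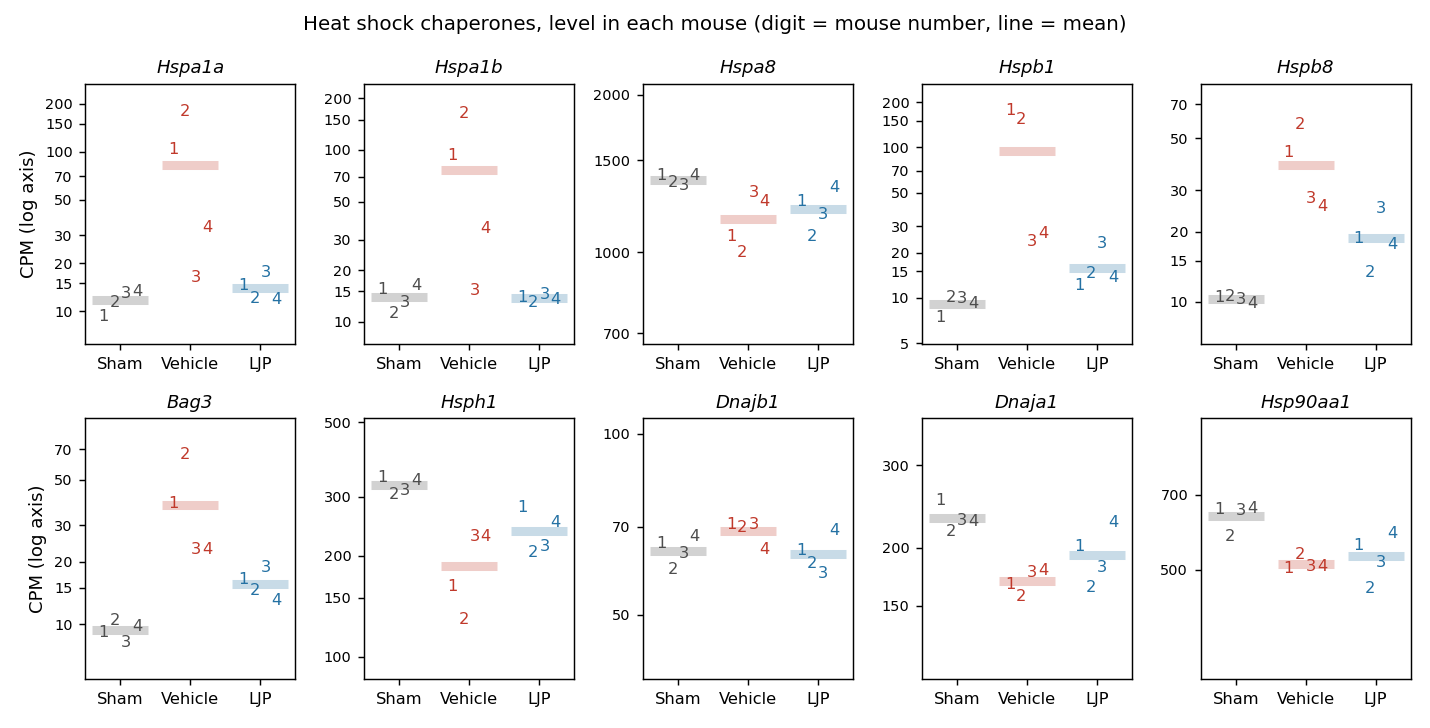
CPM of each member on a log axis (vertical) in the Sham, Vehicle and LJP groups (horizontal), where each digit is 1 mouse by its number and each bar marks the mean of 4 mice. Vehicle mice 1 and 2 were the highest of the 12 for Hspa1a, Hspa1b, Hspb1, Bag3 and Hspb8, while Hsph1 was lowest in the same 2 mice.

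Total counts ranged from 17960353 to 22216315 per mouse, and all 12 libraries carried the same batch label. On the first principal component of all genes tested (60.3% of the variance), Vehicle mice 1 and 2 lay at 69.6 and 113 and Vehicle mice 3 and 4 at 13.7 and 27.5, so the edgeR fold changes and calls of the members and lists were also computed without mice 1 and 2, an alternative added after seeing the data. Neuron markers were present as in brain, with sums over 7 genes of 8830 to 9880 CPM in Sham, 5600 to 8840 in Vehicle and 8330 to 9910 in LJP mice. Sums over 5 markers of lung airway, a tissue that was not sampled, were 9.37 to 13.5 CPM in Sham and 8.85 to 10.8 in Vehicle but 0.358 to 0.669 in LJP mice, in which Scgb1a1, Sftpa1 and Sftpd were at 0 counts, and the part of this in the results below was not tested. In bulk tissue, a lower number of cells of a type and less RNA in each cell cannot be told apart.

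The first comparison, Vehicle against Sham, asked how the chaperones stood after ischemia and reperfusion. Of the 10 members, 5 were higher in the Vehicle group (Hspa1a, Hspa1b, Hspb1, Bag3 and Hspb8), 3 were lower (Hsph1, Dnaja1 and Hsp90aa1) and 2 did not pass the test (Dnajb1 and Hspa8). The test was edgeR's quasi-likelihood test on all 12 mice at a Benjamini-Hochberg adjusted p below 0.05 over all genes, at which 22.7% of all genes tested were higher and 17.3% lower. A share of 5 of 10 higher members lay above the background, and 3 of 10 lower members stood closer to it. With Hspa1a and Hspa1b counted as 1 gene, 4 of 9 were higher and 3 lower. The members were chosen with earlier results of these data known, so these shares do not test for an excess. The median log2 fold change of the 10 members was 1.005, against 0 over all genes, but this value falls in the gap between members that rose and those that did not. With the near-identical Hspa1a and Hspa1b summed to 1 gene, the median of 9 genes was 0.107. Groups did not overlap for 4 members in the higher direction (20.7% of all genes) and for 4 in the lower direction (18.8%).

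The inducible HSP70 pair rose with a wide spread between Vehicle mice. Hspa1a (Entrez Gene 193740, chr17:34969359-34972156 of GRCm38, minus strand) stood at 9.34, 11.4, 12.9 and 13.3 CPM in Sham mice 1 to 4, at 103, 178, 16.2 and 33.6 in Vehicle mice 1 to 4, and at 14.6, 12.1, 17.4 and 11.9 in LJP mice 1 to 4. All 4 Vehicle mice lay above all Sham mice, but Vehicle mouse 3 was below the highest LJP mouse, and within the Vehicle group the highest mouse exceeded the lowest 11-fold. Its change over Sham was 2.82 on the log2 scale (standard error 0.564), with an edgeR adjusted p of 0.00261. Hspa1b (Entrez Gene 15511, chr17:34956429-34959238, minus strand) stood at 15.5, 11.1, 13 and 16.2 CPM in Sham, at 93.1, 162, 15.3 and 34.8 in Vehicle and at 13.8, 13, 14.4 and 13.5 in LJP mice 1 to 4. Here Vehicle mouse 3 lay within the Sham range, so the groups overlapped (exact permutation test, two-sided p = 0.0857) although edgeR called the gene (log2 fold change 2.45, adjusted p = 0.00387). Summed into a single row of counts, the pair rose by 2.63 on the log2 scale (standard error 0.539, edgeR adjusted p = 0.00294).

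Counts of the pair were divided almost evenly. The share assigned to Hspa1a ranged from 37.6 to 54.8% over the 12 mice. In Sham mouse 1 it was 37.6% (exact Clopper-Pearson 95% interval 33 to 42.3%), the lowest of all, and in Vehicle mice 1 and 2 it was 52.5% (51 to 54%) and 52.3% (51.2 to 53.4%). These intervals cover counting error only. Vehicle mice 1 and 2, where the pair was most abundant, did not stand apart from the other mice in this share.

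Hspa8 (Entrez Gene 15481, chr9:40801276-40805202, plus strand), the constitutive HSP70 that folds new proteins and uncoats clathrin vesicles, did not follow the inducible copies. It ranged from 1340 to 1400 CPM in Sham, from 1000 to 1300 in Vehicle and from 1070 to 1330 in LJP mice. All Vehicle values were below all Sham values, for which the two-sided exact permutation p was 0.0286, the lowest possible with 4 mice a group, yet the log2 fold change of -0.25 (standard error 0.099) did not pass edgeR's adjusted threshold (p = 0.0602). DESeq2, the tool of the study's methods, called it (log2 fold change -0.26, adjusted p = 0.0341), as did edgeR without Vehicle mouse 3 (adjusted p = 0.0269) or mouse 4 (adjusted p = 0.0482). Without both Vehicle mice 1 and 2 the difference was -0.12.

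Both small heat shock proteins of the set rose in every Vehicle mouse. Hspb1 (Entrez Gene 15507, chr5:135887919-135889563, plus strand), which caps actin filaments and holds unfolded clients, stood at 7.38, 10.1, 9.97 and 9.17 CPM in Sham, at 177, 153, 23.8 and 26.6 in Vehicle and at 12, 14.6, 23.1 and 13.6 in LJP mice 1 to 4. Vehicle mice 1 and 2 were far above mice 3 and 4, and the 3 groups did not overlap. At 3.38 on the log2 scale (standard error 0.596, edgeR adjusted p = 0.00137), Hspb1 had the largest change of the 10 members. Hspb8 (Entrez Gene 80888, chr5:116408491-116422864, minus strand), the partner of BAG3, stood at 10.5, 10.6, 10.2 and 9.9 CPM in Sham, at 43.4, 57.2, 27.6 and 25.6 in Vehicle and at 18.7, 13.4, 25.1 and 17.6 in LJP mice 1 to 4. The groups again did not overlap, the Sham mice lay close together, and the change of 1.90 on the log2 scale (standard error 0.25) had an edgeR adjusted p of 0.000271. A gene on the opposite strand, Gm36841, overlaps Hspb8 over 10271 bases and had 6 to 87 counts per mouse, and without a stated strand setting reads of the 2 genes cannot be told apart.

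Of the exchange factors, one rose and one fell. Bag3 (Entrez Gene 29810, chr7:128523583-128546981, plus strand), which couples HSP70 and HSPB8 to selective autophagy, stood at 9.17, 10.4, 8.17 and 9.74 CPM in Sham, at 38.1, 65.8, 23 and 23.1 in Vehicle and at 16.4, 14.6, 18.9 and 13 in LJP mice 1 to 4. Its groups did not overlap, and it rose by 2.00 on the log2 scale (standard error 0.295), with an edgeR adjusted p of 0.000521. Hsph1 (Entrez Gene 15505, chr5:149616843-149636498, minus strand), an HSP110 protein and the main exchange factor for cytosolic HSP70, stood at 342, 305, 314 and 335 CPM in Sham, at 162, 129, 228 and 228 in Vehicle and at 279, 205, 213 and 251 in LJP mice 1 to 4. It was lower in every Vehicle mouse than in any Sham mouse and lowest in mice 1 and 2, in which the inducible HSP70 pair was highest. The change was -0.79 on the log2 scale (standard error 0.167, edgeR adjusted p = 0.00336).

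The J-domain proteins did not rise. Dnajb1 (Entrez Gene 81489, chr8:83608175-83612653, plus strand), the HSP40 partner of inducible HSP70, ranged from 59.4 to 67.4 CPM in Sham, from 64.2 to 70.7 in Vehicle and from 58.6 to 69.1 in LJP mice. These ranges overlapped, and the log2 fold change of 0.11 had a 95% interval from -0.05 to 0.26 (edgeR adjusted p = 0.249), so a change as large as that of the inducible pair lay outside the interval. Dnaja1 (Entrez Gene 15502, chr4:40722468-40734965, plus strand), another cytosolic J-domain protein, stood at 252, 217, 229 and 227 CPM in Sham, at 167, 157, 177 and 179 in Vehicle and at 201, 164, 181 and 226 in LJP mice 1 to 4. All Vehicle mice were below all Sham mice, and the difference was -0.44 on the log2 scale (standard error 0.096), with an edgeR adjusted p of 0.00387. An antisense gene, Gm6297, overlaps Dnaja1 over 374 bases and had at most 59 counts in a mouse.

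Hsp90aa1 (Entrez Gene 15519, chr12:110691036-110696395, minus strand), the stress-responsive cytosolic HSP90, stood at 654, 581, 653 and 657 CPM in Sham, at 502, 534, 507 and 508 in Vehicle and at 557, 459, 517 and 589 in LJP mice 1 to 4. The Vehicle mice were close to each other and all below the lowest Sham mouse. Hsp90aa1 fell by 0.31 on the log2 scale (standard error 0.0848, edgeR adjusted p = 0.0122). The 3 members that fell were among the 5 most abundant per length, and the 5 that rose were the 5 least abundant.

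**Figure D2:**
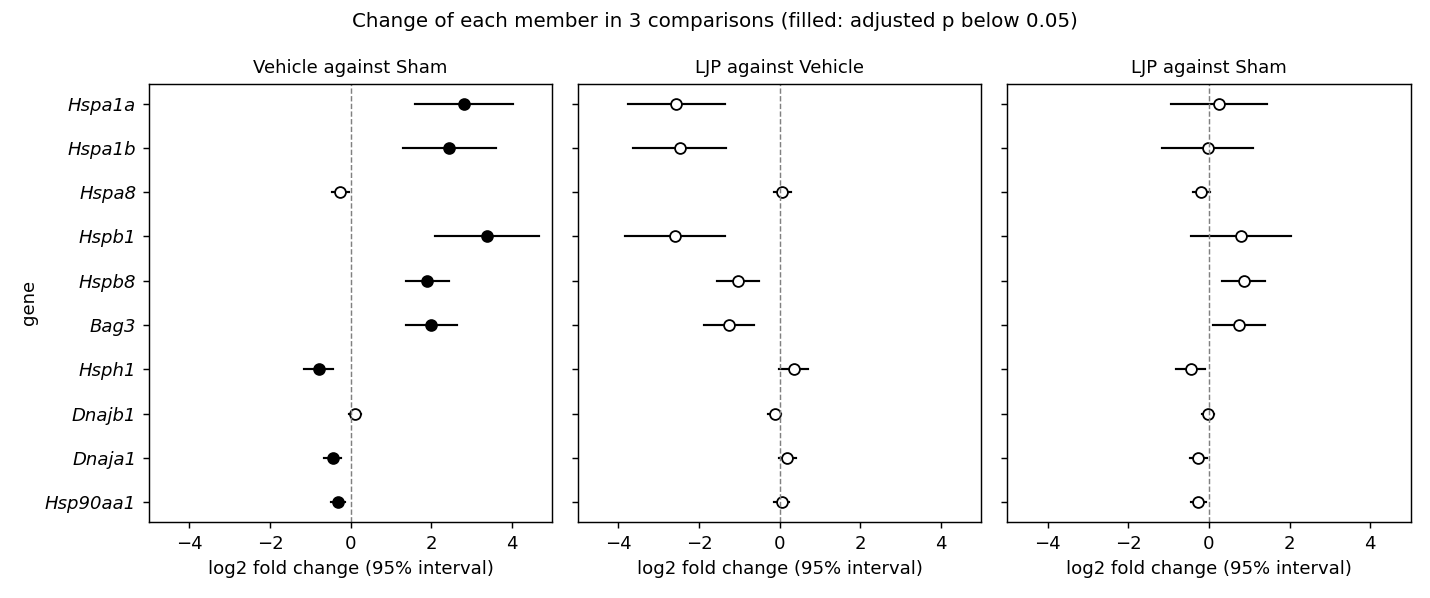
Log2 fold change of each member with its 95% interval (horizontal) in the 3 comparisons, with filled points where the edgeR adjusted p was below 0.05. In Vehicle against Sham 5 members are filled to the right of 0 and 3 to the left, while no point is filled in the other comparisons.

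Vehicle mice 1 and 2 set much of the size of the rise but not the calls. Without these 2 mice, the same 5 members were higher (15.7% of all genes) and the same 3 lower (14%), with edgeR adjusted p-values from 1.5e-05 for Bag3 to 0.0116 for Hspa1b. The log2 fold change of Hspa1a was then 1.08, that of Hspa1b 0.84 and that of Hspb1 1.46. That of Bag3 was 1.29 and that of Hspb8 1.37, so that both now stood above the inducible pair. Without the same 2 mice, Hsph1 fell by 0.51, Dnaja1 by 0.38 and Hsp90aa1 by 0.33 on the log2 scale. Leaving out mouse 2 alone gave 2.11 for Hspa1a, 1.77 for Hspa1b and 1.58 for Bag3. The spread within the Vehicle group was larger than in the Sham group for most genes: the median SD of log2 CPM over the members was 0.476 in Vehicle, 0.202 in LJP and 0.0891 in Sham mice, against 0.306, 0.155 and 0.12 over all genes.

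**Figure D3:**
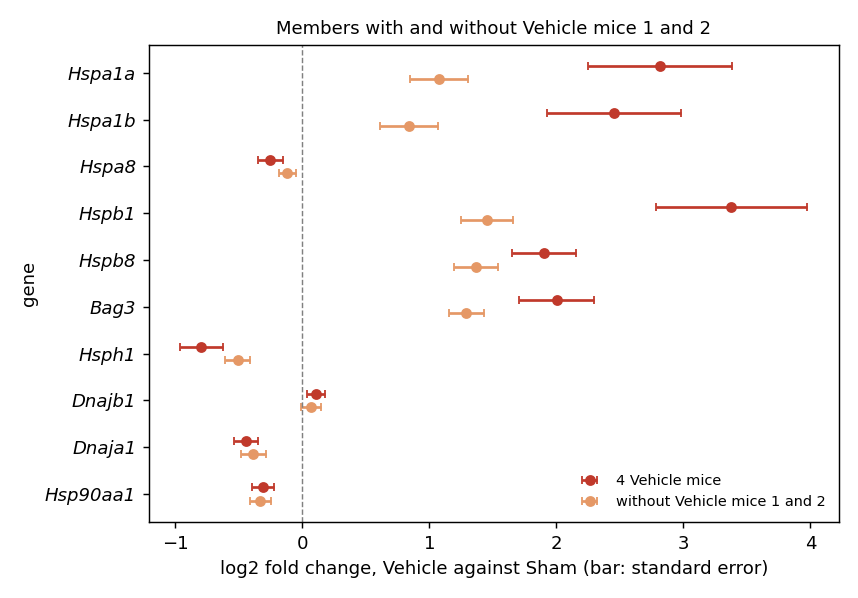
Log2 fold change of each member, Vehicle against Sham, with standard errors (horizontal), from all 4 Vehicle mice and without Vehicle mice 1 and 2. For Hspa1a the value is 2.82 with all mice and 1.08 without the 2, for Hspb1 it is 3.38 and 1.46, and all 8 members that passed keep their direction.

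The summed levels of endothelial markers and of monocyte and macrophage markers followed the order of the Vehicle mice in the inducible pair. Summed over 5 endothelial markers, CPM were 187 to 207 in Sham mice, 616, 1270, 268 and 323 in Vehicle mice 1 to 4 and 193 to 245 in LJP mice, and 3 of the 5 (Cldn5, Pecam1 and Cdh5) rose in Vehicle against Sham, while Flt1 and Slco1a4 did not pass. The pair summed to 22.4 to 29.5 CPM in Sham mice, to 196, 340, 31.5 and 68.3 in Vehicle mice 1 to 4 and to 25.1 to 31.8 in LJP mice. The order of the Vehicle mice was the same for the pair and the endothelial sum. Slco1a4 alone, at 18, 30.4, 33.6 and 27.8 CPM in Vehicle mice 1 to 4, did not follow it. Of 7 neuron markers 3 were lower and 4 did not pass, and their sum was 6940, 5600, 8840 and 8420 CPM in Vehicle mice 1 to 4. This was the reverse of the order in the pair. The values of the Vehicle mice on the first principal component of all genes also had the order of the pair. Pericyte and smooth muscle markers (3 of 6 higher) summed to 135 to 149 CPM in Sham, 149 to 353 in Vehicle and 131 to 163 in LJP mice, and monocyte and macrophage markers (5 of 5 tested higher) to 14.3 to 21, 125 to 326 and 50.5 to 179 CPM. In Vehicle mice 1 to 4 the monocyte and macrophage sum was 180, 326, 125 and 168 CPM, again in the order of the pair. Neutrophil markers, of which none of 7 passed the filter and Ly6g and Cxcr2 were at 0 counts in Sham mice, summed to 140, 32.3, 0.646 and 4.63 CPM in Vehicle mice 1 to 4 and to at most 1 CPM in the other groups. Microglia markers (5 of 6 higher) summed to 291 to 297, 411 to 819 and 499 to 840 CPM in Sham, Vehicle and LJP mice, astrocyte markers (2 higher and 1 lower of 7) to 3650 to 4120, 3520 to 5510 and 4250 to 5540, and oligodendrocyte markers (0 of 5 passed) to 3480 to 4240, 4190 to 4490 and 3330 to 4120. The part of these cell types in the chaperone results was not tested.

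**Figure D4:**
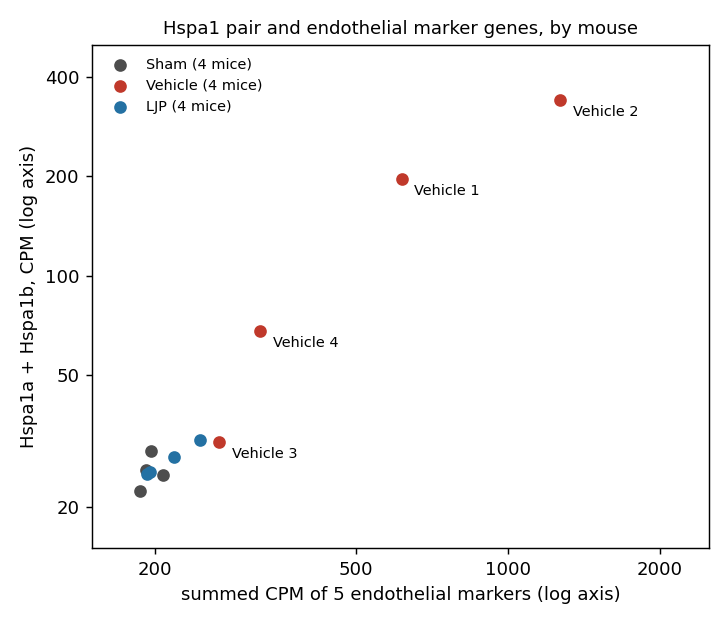
Summed CPM of 5 endothelial markers (horizontal) and of Hspa1a plus Hspa1b (vertical), both on log axes, with 1 point per mouse. Sham and LJP mice lie between 22.4 and 31.8 CPM of the pair with Vehicle mouse 3 at 31.5, and Vehicle mice 3, 4, 1 and 2 follow each other in rising order on both axes.

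The genes most like the summed pair over the 12 mice were Lrrc32, Col4a2, Pecam1, Hspg2 and Flt4, with root mean square differences of log2 CPM from 0.218 to 0.249 after each gene's Sham mean was subtracted. Over all genes tested the median difference was 1.47. Pecam1 is an endothelial adhesion protein, Flt4 a VEGF receptor, Col4a2 a collagen chain and Hspg2 a proteoglycan of the basement membrane, and Lrrc32 holds latent TGF-beta at the cell surface. Pecam1 stood at 161, 339, 32.1 and 59.3 CPM in Vehicle mice 1 to 4, against 18.1 to 22.3 in Sham mice. Other members were less alike: the difference was 0.609 for Bag3, 0.661 for Hspb1 and 0.702 for Hspb8, with 188, 280 and 367 genes closer to the pair. Dnajb1, at 1.38, was closer to the median of all genes.

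The second comparison, LJP against Vehicle, asked about the polysaccharide in ischemic mice, and it shares the Vehicle mice with the first. None of the 10 members passed edgeR's adjusted threshold, and of all genes 0% were higher and 0.0228% lower. This lower share is 4 genes, among them the lung airway markers Scgb1a1, Sftpa1 and Sftpb. At an unadjusted p below 0.05 there were 5 members, against 29.7% of all genes. These 5, Hspa1a, Hspa1b, Hspb1, Bag3 and Hspb8, were lower in the LJP group, and each had an adjusted p of 0.0678. Their log2 fold changes were -2.56 (standard error 0.556) for Hspa1a, -2.48 (0.53) for Hspa1b, -2.59 (0.57) for Hspb1, -1.26 (0.286) for Bag3 and -1.04 (0.241) for Hspb8. No LJP mouse overlapped with a Vehicle mouse for 4 of them (5.91% of all genes lay separate in this direction and 5.77% in the other), and for Hspa1a LJP mouse 3 at 17.4 CPM lay above Vehicle mouse 3 at 16.2.

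Whether these 5 were called depended on the tool and on single mice. DESeq2 called all 5 with adjusted p-values from 0.00198 to 0.00322, at which 8.99% of all genes were lower. The cut-offs of the study's methods, a log2 fold change beyond 0.58 in size and a p below 0.01, were applied here to the unadjusted p of the edgeR fit. All 5 passed them, as 5.89% of all genes did in the lower and 1.07% in the higher direction. Without Vehicle mouse 3, edgeR called the 5 with adjusted p-values from 0.00679 for Hspa1b to 0.0125 for Hspb8 (13.1% of all genes lower), and without Vehicle mouse 4 with an adjusted p of 0.031 each (8.38%). Without both Vehicle mice 1 and 2 none was called, and the log2 fold changes were -0.83 for Hspa1a, -0.88 for Hspa1b, -0.68 for Hspb1, -0.55 for Bag3 and -0.51 for Hspb8. All 5 were thus lower than in Vehicle under every setting tried, while the size rested on mice 1 and 2.

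None of the other 5 members passed between LJP and Vehicle. Hsph1 differed by 0.34 on the log2 scale (95% interval -0.02 to 0.70, edgeR adjusted p = 0.185), with LJP mice 1 and 4 above and LJP mice 2 and 3 within the range of the Vehicle mice. Dnaja1 differed by 0.19 (interval -0.02 to 0.39), Hspa8 by 0.07 (-0.15 to 0.28), Hsp90aa1 by 0.05 (-0.14 to 0.23) and Dnajb1 by -0.13 (-0.28 to 0.03). These intervals leave out changes as large as those of the inducible pair but do not show that the groups were alike.

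The third comparison, LJP against Sham, asked what of the response was present in treated ischemic mice. In edgeR's fit of all 12 mice 0 of 10 members passed, against 3.85% of all genes higher and 0.9% lower. At an unadjusted p below 0.05 there were 5 members (Hsph1, Dnaja1, Hsp90aa1, Bag3 and Hspb8), against 18.8% of all genes. Hspb1, Bag3 and Hspb8 were nonetheless higher in every LJP mouse than in every Sham mouse (12.9% of all genes), and Hsph1 and Hspa8 lower (12% of all genes), each with an exact permutation p of 0.0286. Mean Hspb8 was 18.7 ± 4.84 CPM in LJP and 10.3 ± 0.307 in Sham mice (SD, n = 4), a log2 difference of 0.86 with an edgeR adjusted p of 0.0703. Hspa1a at 14 ± 2.58 against 11.7 ± 1.79 CPM and Hspa1b at 13.7 ± 0.568 against 13.9 ± 2.37 CPM overlapped with Sham mice. The pair summed differed by 0.11 on the log2 scale (standard error 0.521).

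The fit of all 12 mice takes its estimate of spread from the Vehicle mice too. When LJP and Sham mice were fitted alone, 7 of the 10 members passed, 3 higher (12.1% of all genes) and 4 lower (11.8%). Hspb1 was then higher by 0.78 (standard error 0.187, edgeR adjusted p = 0.00813), Bag3 by 0.74 (0.127, adjusted p = 0.00101) and Hspb8 by 0.86 (0.155, adjusted p = 0.00143). Hsph1 differed by -0.46 (adjusted p = 0.0017), Hsp90aa1 by -0.27 (0.0151), Hspa8 by -0.19 (0.0342) and Dnaja1 by -0.26 (0.0347). The same 7 passed in the fit of the other 10 mice without Vehicle mice 1 and 2, where 12.3% of all genes were higher and 12% lower. DESeq2 on all 12 mice called 2, Hspb8 (adjusted p = 0.014) and Hsp90aa1 (0.03), against 7.85% of all genes. Hspa1a, Hspa1b and Dnajb1 passed in none of these fits.

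Beyond the 10 members, 98 other chaperone genes in 9 lists were examined, of which 95 had enough counts. In Vehicle against Sham, 18 were higher (18.9%) and 21 lower (22.1%), near the 22.7% and 17.3% of all genes. The median log2 fold change of the 95 was -0.01. With library sizes alone in place of TMM factors 23 were higher and 14 lower, where 40.1% of all genes passed. Without Sham mouse 1 alone, 22 of the 95 passed, against 29.5% of all genes. Without Vehicle mice 1 and 2, 6 were higher and 19 lower, against 15.7% and 14% of all genes. Of 6 tested small heat shock proteins 4 were higher (Hspb2, Hspb6, Hspb7 and Cryab), with a median of 1.07. Of 16 cytosolic J-domain proteins 8 were lower and the others did not pass, with a median of -0.22, and of 11 other HSP70 partners 4 were lower, with a median of -0.20.

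Hspb6, a small heat shock protein best known from muscle, had the largest change among the lists. It stood at 2.3 to 4.09 CPM in Sham, at 25.7, 26, 12.4 and 11.9 in Vehicle and at 11.9, 13.1, 12.8 and 8.97 in LJP mice 1 to 4. Vehicle mice were all above Sham mice (log2 fold change 2.60, edgeR adjusted p = 0.000134), LJP mice overlapped with Vehicle mice, and against Sham they were higher by 1.90 (adjusted p = 0.00287), the 1 chaperone gene of members and lists called in that comparison by edgeR's fit of all 12 mice. Hspb7, a cardiac and muscle member, had 4 to 8 counts per mouse in Sham, 17 to 62 in Vehicle and 6 to 8 in LJP, with a log2 fold change of 2.12 (adjusted p = 0.00276). Hspb2 had 6 to 11, 15 to 69 and 14 to 22 counts, with 1.60 (adjusted p = 0.0131), and without Vehicle mouse 2, the highest mouse for both, the values were 1.56 for Hspb7 and 0.96 for Hspb2.

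Among other HSP70 proteins 2 of 5 were higher and 1 lower. Hspa12b, an atypical HSP70 of endothelial cells, stood at 33.2, 64.5, 18.8 and 17.7 CPM in Vehicle mice 1 to 4 against 13.4 to 17.2 in Sham mice (log2 fold change 1.10, edgeR adjusted p = 0.0192). It did not pass without Vehicle mice 1 and 2 (0.21, edgeR adjusted p = 0.208) or without Sham mouse 2 (1.02, adjusted p = 0.0543), nor when only Vehicle and Sham mice were fitted. Its relative Hspa12a, which is abundant in neurons, fell by 0.60 (adjusted p = 0.0155). It fell by 0.29 without Vehicle mice 1 and 2 and did not pass when only Vehicle and Sham mice were fitted (adjusted p = 0.0508). The HSP110 genes fell with Hsph1: Hspa4 by 0.55 (adjusted p = 0.00389) and Hspa4l by 0.76 (adjusted p = 0.00314). Hspa4l stood at 75.8, 60.1, 110 and 107 CPM in Vehicle mice 1 to 4, all below the 142 to 163 CPM of the Sham mice.

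The cytosolic J-domain genes that passed all fell, as Dnaja1 did. Dnaja2 fell by 0.25 (edgeR adjusted p = 0.00835) and Dnajb14, which sits at the endoplasmic reticulum membrane facing the cytosol, by 0.33 (adjusted p = 0.00631). Among 13 HSP90 genes and cochaperones 6 were lower and 2 higher. Sugt1, which links HSP90 to kinetochore and immune receptor assembly, fell by 0.34 (adjusted p = 0.00716). Fkbp5, an HSP90 cochaperone of the glucocorticoid receptor and a target of it, rose from 50.2 to 69.4 CPM in Sham to 159, 243, 103 and 82.1 in Vehicle mice 1 to 4 (log2 fold change 1.32, adjusted p = 0.00313). Its level in LJP mice, 87.4 to 128 CPM, also lay above all Sham mice.

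Of 5 heat shock factors and regulators 1 passed, Hsf5, with 2 or 3 counts in each Sham mouse and 4 to 21 in Vehicle mice, too few for a fold change to be given (edgeR adjusted p = 0.0212, and 0.059 without Sham mouse 4 or 0.0746 without Vehicle mouse 2). Hsf4 ranged from 15.6 to 18 CPM in Sham and from 15.4 to 28 in Vehicle mice and did not pass (adjusted p = 0.104), but it passed without Vehicle mouse 2 (0.47, adjusted p = 0.021). Of 14 genes of the chaperonin CCT and prefoldin 2 were higher, Cct2 by 0.36 (adjusted p = 0.023) and Cct5 by 0.27 (adjusted p = 0.015). In mitochondria 2 of 11 were higher and 1 lower, among them the iron-sulphur cochaperone Hscb at 0.55 (adjusted p = 0.011) and the disaggregase Clpb, which fell by 0.34 (adjusted p = 0.0139). In the endoplasmic reticulum 5 of 14 were higher and 1 lower, with Dnajb11 at 0.38 (adjusted p = 0.0152) and the exchange factor Sil1 at 0.31 (adjusted p = 0.00697). Without Vehicle mice 1 and 2, Hsf5, Cct2, Cct5, Clpb, Hscb and Dnajb11 did not pass, whereas Sil1 did, and Cct2 also lost its call without any one of Sham mice 1 and 3 and Vehicle mice 1 and 2 (adjusted p of up to 0.0639) and when only Vehicle and Sham mice were fitted.

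Between LJP and Vehicle, 0 of the 95 passed edgeR's adjusted threshold, and 26 had an unadjusted p below 0.05, 17 lower and 9 higher in LJP, a share near the 29.7% of all genes. DESeq2 called 6, against 12.6% of all genes. The lowest p-values with a log2 change over 1 belonged to Hspb7 (-2.03) and Hspa12b (-1.24), each with an edgeR adjusted p of 0.0678. Hspb7 in LJP mice, at 0.273 to 0.435 CPM, lay below every Vehicle mouse and overlapped with Sham mice at 0.219 to 0.461. Against Sham, 1 of the 95 passed and 15 had an unadjusted p below 0.05, against 18.8% of all genes.

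**Figure D5:**
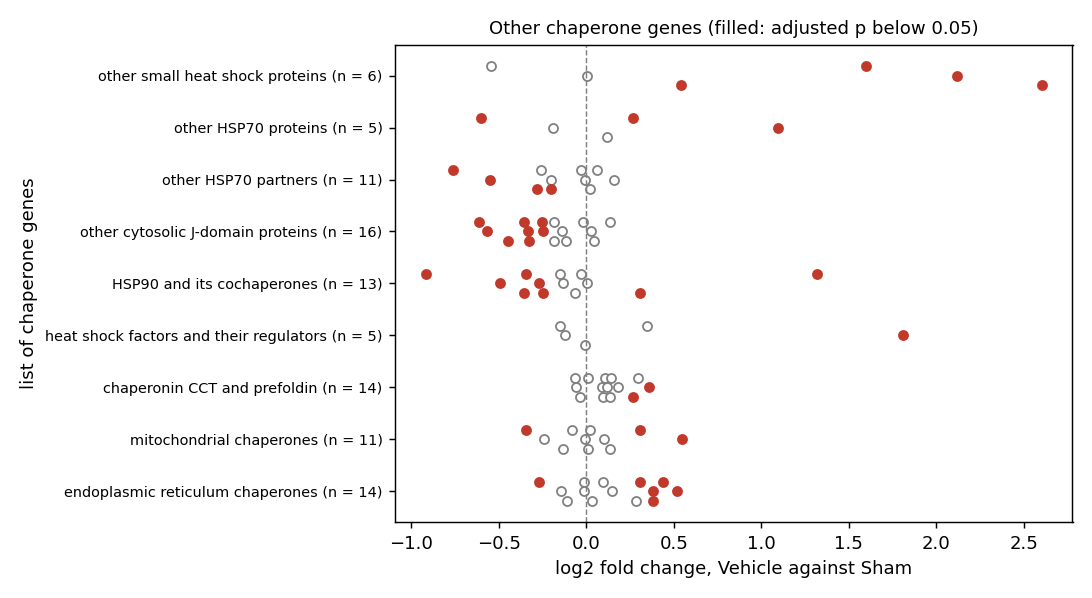
Log2 fold change, Vehicle against Sham (horizontal), of 95 other chaperone genes in 9 lists (vertical), with filled points where the edgeR adjusted p was below 0.05. Small heat shock proteins reach 2.60 with Hspb6, while every filled point among cytosolic J-domain proteins and HSP70 partners lies below 0.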

How the data were processed

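Poly(A) RNA-seq of 12 hemispheres, each from a separate mouse, was analysed, and the sample labels gave the 3 groups of 4. Per gene, the table that the authors deposited holds unnormalized counts, for which the submitters' processing notes name featureCounts, DESeq2, GRCm39 and mm10. The gene positions in the table fit GRCm38. The aligner, the strand setting and the treatment of reads with several matches are not given in the sources used here, and they could move counts between near-identical or overlapping genes. Total counts ranged from 17960353 to 22216315, and no pair of libraries within a group was a duplicate (lowest chi-square per degree of freedom 2.48). Pairs across groups were not examined.

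Genes were filtered with filterByExpr, scaled by TMM and tested with the quasi-likelihood test of edgeR 4.0.16 (R 4.3.3, limma 3.58.1) in 1 fit of all 12 mice, with Benjamini-Hochberg adjustment over 17558 genes and calls at an adjusted p below 0.05. Log2 CPM used a prior count of 2. Single genes were also compared by a two-sided exact permutation test of log2 CPM. Tested on simulated data for Vehicle against Sham (17558 genes), the fit recovered 81% of 100 genes changed by 1 on the log2 scale. It recovered 99% of 100 genes changed by 2 and made 5 false calls. In the mice themselves, the median SD of log2 CPM over all genes was 0.306 in Vehicle and 0.12 in Sham. Recovery under such unequal spread was not tested. Alternatives were DESeq2 1.42.0, other scalings, no filter, fits of only the groups compared, the thresholds of the study's methods, the replicate number as a block and leaving out mice. Figures were drawn with matplotlib 3.10.9 in Python 3.11.15.

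The 10 members and the lists of other chaperones and of cell type markers were chosen with earlier results of these data known. All 10 members were named. From each of 9 lists of other chaperones, the 2 genes with the smallest edgeR p in Vehicle against Sham were named, with every gene called there at an absolute log2 fold change over 1, and Cryab was added after its values were seen. Of all tested genes that are no member, the 5 with the smallest root mean square difference in log2 CPM from the summed Hspa1a and Hspa1b were named, 1 of which, Pecam1, is also an endothelial marker.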

Additional observations from a re-analysis of the deposited data

Results flagged for a closer look

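Within a group of 4 mice, a mouse was noted when its gap to the nearest other mouse, as a share of the group's range in log2 CPM, passed Dixon's 95% critical value. This happened in 6 of 87 groups examined over 29 genes, where chance alone gives about 1 in 20, or 4.35. Among the members, Hsp90aa1 in Sham mouse 2 (581 CPM) was the lowest of its group with a gap of 0.949 of the range, and Dnajb1 in Vehicle mouse 4 (64.2 CPM) was the lowest with a gap of 0.87. Among the other chaperones, Hspb7 in Vehicle mouse 2 (2.66 CPM) was the highest with 0.892, Hspa4 in Sham mouse 1 (277 CPM) the highest with 0.859, Hsf5 in Sham mouse 4 (0.104 CPM) the lowest with 0.878 and Cct2 in LJP mouse 2 (108 CPM) the lowest with 0.835. Neither Hspa1a, Hspa1b nor Hspb1 was among them, since their high values were shared by Vehicle mice 1 and 2.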

How the results depend on the processing

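In Vehicle against Sham, 8 members were called under each alternative apart from DESeq2 and the fits without Vehicle mouse 3 or 4, where Hspa8 made them 9, the study's thresholds, which left 6 (21.7% of all genes), and the summed pair, which left 7. In LJP against Vehicle, 5 members were called with DESeq2, without the filter on low counts (1.96% of all genes) and with the study's thresholds (6.97%), and 0 to 5 when 1 mouse was left out, with 5 without Vehicle mouse 3 or 4. The summed pair was called there by DESeq2 (-2.52, adjusted p = 0.00192) and without the filter (-2.51, edgeR adjusted p = 0.0412) and by edgeR without Vehicle mouse 3 (adjusted p = 0.00678) or mouse 4, and it ranged from -2.85 to -1.84 when 1 mouse was left out. In LJP against Sham, 2 members were called with DESeq2, 1 without the filter (2.76% of all genes), 1 with the study's thresholds (5.9%), 7 with only the groups compared, 7 without both Vehicle mice 1 and 2 and 0 to 4 when 1 mouse was left out, with 4 without Vehicle mouse 2 (13.3% of all genes). Of the 95 other chaperones, 39 were called in Vehicle against Sham (39.9% of all genes). The count was 22 with only the groups compared (30.7%), 25 without both Vehicle mice (29.7%) and 10 with the study's thresholds (21.7%). When 1 mouse was left out, it ranged from 22 without Sham mouse 1 (29.5%) to 41 without Vehicle mouse 4 (42.7%). In LJP against Vehicle 6 of the 95 were called with DESeq2 (12.6% of all genes), 2 without the filter (1.96%) and 2 with the study's thresholds (6.97%). When 1 mouse was left out, 0 to 17 were called, with 17 without Vehicle mouse 3 (21.6% of all genes). In LJP against Sham the counts were 3 with DESeq2 (7.85% of all genes), 2 without the filter (2.76%) and 2 with the study's thresholds (5.9%). They were 21 with only the groups compared (23.8%) and 24 without both Vehicle mice (24.3%). When 1 mouse was left out they were 1 to 8, with 8 without Vehicle mouse 2 (13.3%). The cause of these shifts was not tested.

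The sign turned for 4 small differences, none of them called. Hsp90aa1 in LJP against Vehicle was -0.003 without LJP mouse 4, and Hspa8 was -0.0736 without both Vehicle mice 1 and 2. In LJP against Sham, Hspa1b was 0.0244 with library sizes alone, 0.0293 without Sham mouse 1 and from -0.1269 to 0.0506 over all fits without 1 mouse. Dnajb1 was 0.0334 with library sizes alone, 0.0065 without Sham mouse 4 and from -0.0659 to 0.0142 over all fits without 1 mouse. With the replicate block, the members called were 8, 0 and 0 in the 3 comparisons, and the other chaperones called were 31, 0 and 1. Of all genes 34.8%, 0.0114% and 2.64% were called there. The summed pair was 2.32, -2.22 and 0.10. Deviations of mice with the same number had correlations from -0.322 to 0.114, which cannot decide whether the numbers pair them. With 1 mouse left out, the exact permutation test cannot go below 0.0571. Low counts per mouse limit what can be said of Hspb2, Hspb7 and Hsf5.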
